A study of Mus musculus with 15 samples.

Results

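The transcripts described here come from 10 mouse genes whose products restrain mitogen-activated protein kinases (MAP kinases): the dual-specificity phosphatase genes Dusp1, Dusp2, Dusp4, Dusp5, Dusp6, Dusp14 and Dusp16, and the Sprouty genes Spry1, Spry2 and Spry4. They were taken by symbol from a table of raw read counts over 53465 genes, and the rule that picks them is their symbol, not a measured value, although they were proposed with earlier results of these data known. RNA-seq had been done on BMDMs, that is, macrophages obtained by culturing mouse bone marrow in macrophage colony-stimulating factor (M-CSF). There were 15 libraries in 5 groups of 3, and they held between 17001352 and 18918686 counted reads each.

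All 5 groups were grown in 20 ng/ml of M-CSF for 7 days and collected at 24 h of treatment. The control group (CTR) received no further cytokine. The IL-4 group received 10 ng/ml of IL-4, and the IL-13 group 40 ng/ml of IL-13. The IL-4/IL-6 and IL-13/IL-6 groups received the same dose of IL-4 or IL-13 together with 40 ng/ml of IL-6. IL-4 and IL-13 were thus used at different doses, and no library had IL-6 without IL-4 or IL-13, so an effect of IL-6 is always one on top of either cytokine. Per the study's methods, marrow came from mice at 8 to 12 weeks of age. The sample labels do not say whether the 3 libraries of a group came from separate animals, so the p-values measure the spread between these libraries.

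ERK, the kinase at the end of the Ras, Raf and MEK cascade, switches on genes for its own inhibitors. Dual-specificity phosphatases remove the activating phosphates from the threonine and the tyrosine of the kinase itself, and they differ in where they act and in which kinase they prefer. Sprouty proteins act further up, between the receptor and Raf. Because many of these genes are induced by ERK, their transcripts are often used to follow the pathway in macrophages and other cells, although each also answers to other signals.

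The identity of the cells was checked first. All 7 macrophage markers examined, among them Adgre1, Csf1r and Cd68, were present in every group, at levels given here as normalized CPM (read counts relative to library totals that were scaled by TMM). Their sum was 18634 to 20805 CPM in the control group, 14196 to 14672 with IL-4 and 10850 to 12643 with IL-4/IL-6, and 16811 to 19488 with IL-13 and 13696 to 14587 with IL-13/IL-6, so that it was lower with IL-6 in both settings without overlap. The single markers did not move one way: with IL-6 on top of IL-4, 3 were called higher, Adgre1 among them, and 4 lower, Lyz2 among them, and on top of IL-13 3 were higher and 2 lower. The control libraries also carried transcripts of other marrow cells. The 7 granulocyte markers summed to between 336 and 402 CPM in the control libraries and to between 0.98 and 2.03 CPM in the 12 libraries with cytokine, where Ly6g had no read. Of the basophil, mast cell and eosinophil list, 6 of 6 genes had reads in the control group, with a sum of 18.9 to 22 CPM, against at most 0.33 CPM elsewhere. The B cell list reached 10.2 to 10.8 CPM against at most 1.55 CPM, the stromal list 15.6 to 21.0 CPM against at most 0.37 CPM, and the dendritic cell list 11.9 to 14.4 CPM against at most 1.04 CPM. The T and NK cell list did not pass 0.28 CPM in any library. The megakaryocyte and platelet list, 4 genes of which Pf4 is one, summed to 70.1 to 89.6 CPM with IL-4 or IL-13, to 175 to 421 CPM once IL-6 was added, and to 360 to 406 CPM in the control group. Against control, Pf4 was called higher with IL-4/IL-6 and with IL-13/IL-6 (log2 fold change 1.27 and 2.00). The other 3 genes were called lower, with Itga2b at -6.08 in both. With IL-6 on top of IL-4 or IL-13, Pf4 and Ppbp were called higher, and Itga2b and Gp9 had no call. The granulocyte, basophil, B cell, stromal and dendritic cell sums were therefore lower than control in every cytokine group. The macrophage sum overlapped control with IL-13, and the megakaryocyte sum did so with IL-13/IL-6. Both of these sums also moved with IL-6. The part of all these markers in the results below was not tested. In bulk RNA, fewer cells of a type and less RNA per cell cannot be told apart.

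The libraries of a group were not equally alike, and 2 of them stood apart. The second IL-4/IL-6 library differed from the other 2 of its group by a mean chi-square per gene of 29.6 and 52.1, against 7.86 between those 2, and the first IL-13 library by 22.6 and 17.4 against 3.94. The spread within groups (biological coefficient of variation) was accordingly 14.9% with IL-4/IL-6 and 10.9% with IL-13, against 4.49% in the control group and 4.54% with IL-4. These 2 libraries also had the lowest Dusp4 level of their groups. Their deviations from the group means correlated across genes (r = 0.39), and what they share was not tested. They were left out one at a time, not together. Without the second IL-4/IL-6 library, 22 of 24 calls that involve its group held for the genes described here, and without the first IL-13 library 17 of 18. The lost calls were Dusp6 between IL-13/IL-6 and IL-4/IL-6, the difference of IL-6 effects for Dusp1, and Dusp16 between IL-13/IL-6 and IL-13.

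Levels between genes were compared per transcript length, on the FPKM scale of the deposited files (fragments divided by gene length and by library total). In the control group Dusp6 had the highest mean, 8.51 ± 0.37 FPKM (SD, n = 3), followed by Dusp4 with 7.27 ± 0.96 and Dusp1 with 4.62 ± 0.11. Spry2 stood at 2.73 ± 0.35, Dusp5 at 2.29 ± 0.32, Dusp2 at 2.27 ± 0.16 and Dusp16 at 1.27 ± 0.04 FPKM. The ranges of Spry2 and Dusp5, and of Dusp5 and Dusp2, overlapped between the 3 libraries, so the order of these neighbours is not resolved. Spry1 (0.355 ± 0.175 FPKM) and Dusp14 (0.0766 ± 0.0573 FPKM) were low, and Spry4 was listed at 0 in all 3 libraries.

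The sum over the 10 genes rose from 29.4 ± 1.4 FPKM in the control group to 101 ± 2 with IL-4 and 109 ± 10 with IL-13, and it was 92.9 ± 10.5 with IL-4/IL-6 and 93.7 ± 3.4 with IL-13/IL-6. FPKM uses plain library totals, whereas the TMM factors were 1.01 to 1.02 with IL-4 and 0.898 to 0.979 with IL-4/IL-6. The sums with and without IL-6 are therefore not read as different. Dusp4 and Dusp6 together made up 53.7% ± 0.2 of this sum in the control group and between 80.3% and 88.7%, as group means, in the other groups. Both phosphatases act on ERK, Dusp4 in the nucleus and Dusp6 in the cytoplasm. The ratio of Dusp4 to Dusp6 FPKM was 0.858 ± 0.142 in the control group, 3.44 ± 0.31 with IL-4 and 1.62 ± 0.18 with IL-13. With IL-6 added it was 0.868 ± 0.207 and 0.909 ± 0.083, respectively. The lowest IL-4 library (3.10) lay far above the highest IL-4/IL-6 library (1.07), and the lowest IL-13 library (1.43) above the highest IL-13/IL-6 library (1.00). The ratio was singled out after its values had been seen, and it is given as a description without a test.

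**Figure D1:**
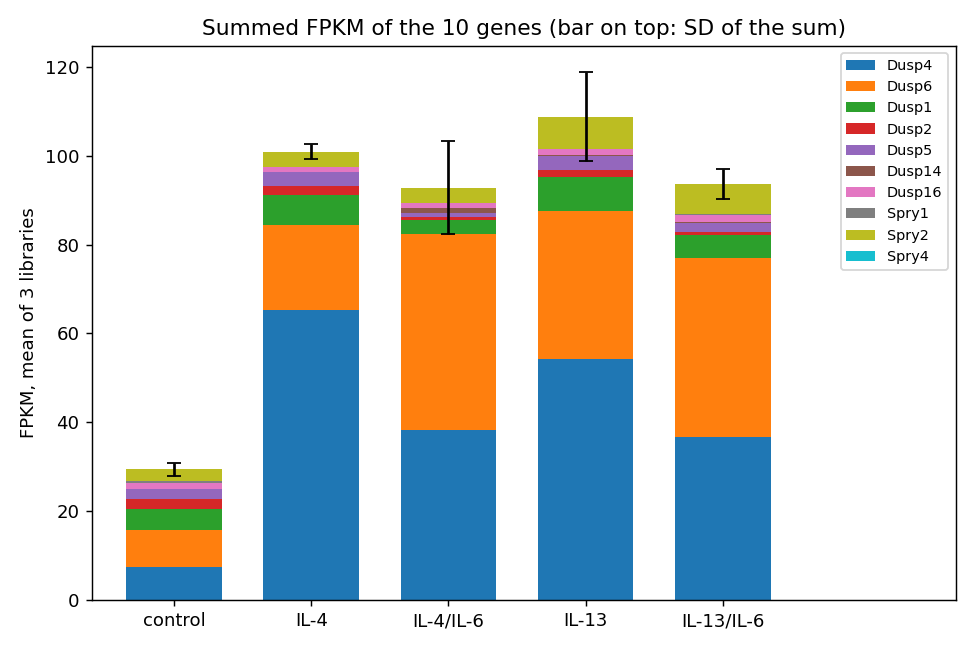
Stacked bars give the mean FPKM of each of the 10 genes in the 5 groups, 3 libraries each, and the error bar is the SD of the sum. The sum is 29.4 FPKM in the control group and 92.9 to 109 FPKM in the cytokine groups, and the Dusp4 share (bottom segment) is 64.6% with IL-4 and 40.9% with IL-4/IL-6.

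Dusp6 (chr10:99263231-99267489, plus strand, GRCm38) is the cytoplasmic ERK phosphatase of the set. Its normalized level was 25.6, 26.7 and 24.2 CPM in the 3 control libraries, 56.9, 57.4 and 62.3 with IL-4, 143, 153 and 143 with IL-4/IL-6, 96.7, 104 and 104 with IL-13, and 129.9, 128 and 130.4 with IL-13/IL-6. The 5 groups did not overlap, and the level went up in the order control, IL-4, IL-13, IL-13/IL-6, IL-4/IL-6. In the quasi-likelihood test of edgeR, with p-values adjusted over all genes tested, IL-4 raised Dusp6 by a log2 fold change of 1.21 (95% interval 1.06 to 1.35, adjusted p = 6.39e-11) and IL-13 by 2.00 (1.86 to 2.14, adjusted p = 2.51e-13). These comparisons share the control libraries. Between the cytokines, Dusp6 was higher with IL-13 than with IL-4 by 0.79 (0.66 to 0.92, adjusted p = 1.57e-07).

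Adding IL-6 raised Dusp6 further in both settings, by 1.31 on the log2 scale with IL-4 (1.18 to 1.45, adjusted p = 2.64e-11) and by 0.35 with IL-13 (0.22 to 0.48, adjusted p = 0.000376). The difference between these effects was itself tested, and the IL-6 effect was smaller with IL-13 by 0.97 on the log2 scale (log2 difference -0.97, -1.15 to -0.78, adjusted p = 2.48e-06). With IL-6 present the order of the cytokines turned, and Dusp6 was slightly lower with IL-13/IL-6 than with IL-4/IL-6 (log2 fold change -0.18, -0.31 to -0.05, adjusted p = 0.0378). That last call is a marginal one, since leaving out any one of the 6 libraries compared gave an adjusted p between 0.0512 and 0.121, although the groups did not overlap. The window before the Dusp6 start is shown because this gene answered to IL-4, to IL-13 and to IL-6. It is RefSeq sequence of build GRCm38.p6, chr10:99262981-99263230, plus strand, the 250 bases that end just before the start and overlap no annotated exon.
Dusp6: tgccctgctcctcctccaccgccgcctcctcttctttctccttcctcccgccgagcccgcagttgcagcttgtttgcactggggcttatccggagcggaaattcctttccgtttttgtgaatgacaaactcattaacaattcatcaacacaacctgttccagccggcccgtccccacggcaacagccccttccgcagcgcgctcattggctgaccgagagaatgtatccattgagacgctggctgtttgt

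**Figure D2:**
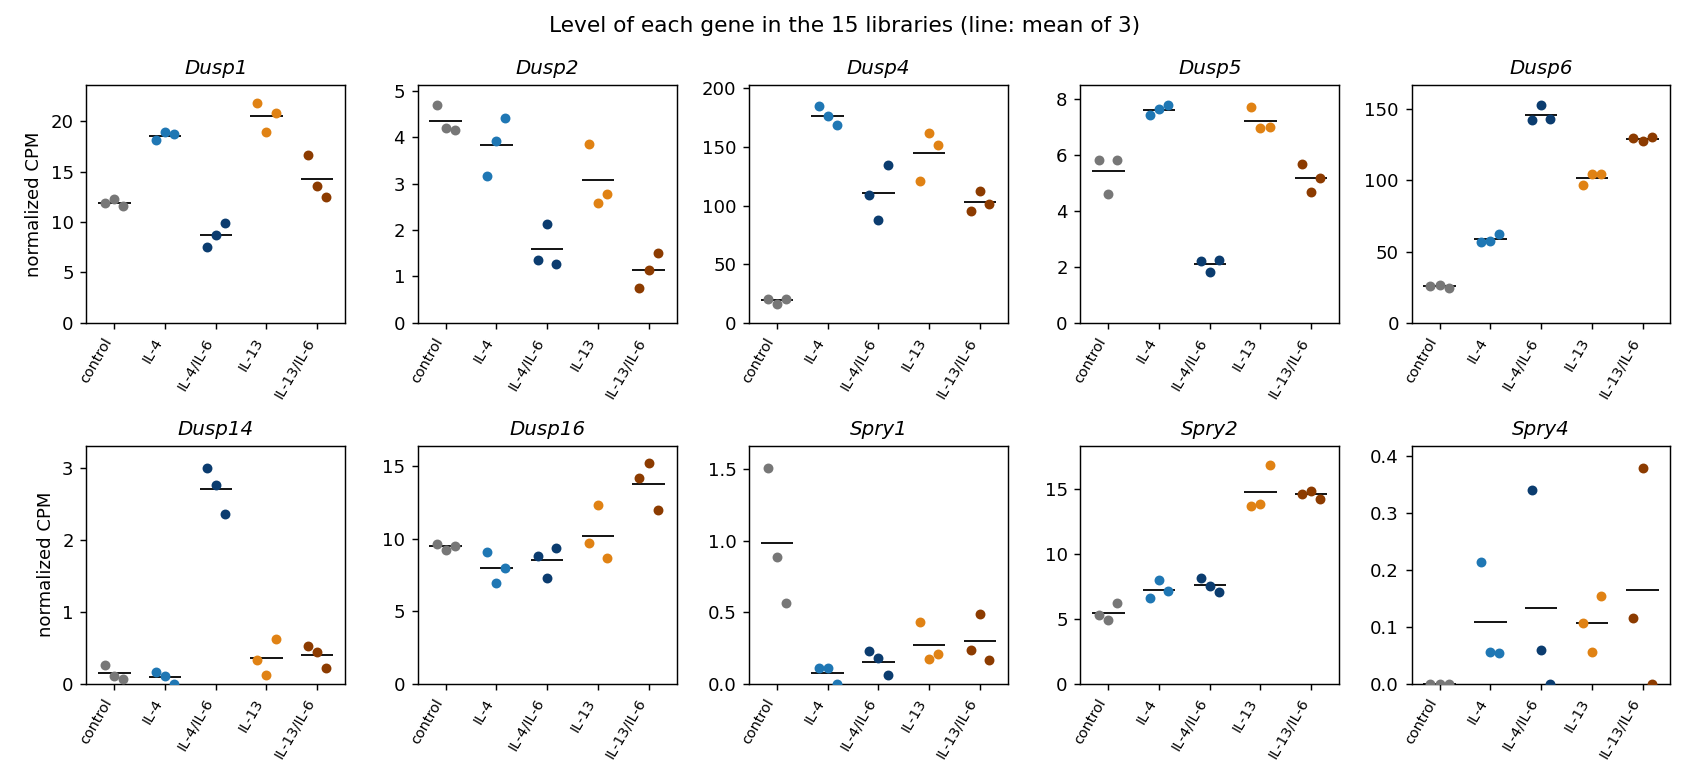
Each panel shows a gene, with normalized CPM on a linear axis from 0, the 3 libraries of each group as points and their mean as a line. Dusp6 climbs through 5 groups that do not overlap, Dusp14 is raised with IL-4/IL-6 (2.36 to 3.00 CPM) against at most 0.618 CPM in any other library, and Dusp5 is lowest with IL-4/IL-6.

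Dusp4 (chr8:34807297-34819894, plus strand) encodes a nuclear, inducible phosphatase that acts on ERK. Its level was 20.3, 16.3 and 20.5 CPM in the control libraries, 185, 176 and 169 with IL-4, 109, 87.9 and 134 with IL-4/IL-6, 121, 162 and 151 with IL-13, and 95.4, 112 and 101 with IL-13/IL-6. Of the 9 genes tested, it had the largest rise over control with either cytokine. The log2 fold change was 3.21 with IL-4 (2.90 to 3.52, adjusted p = 6.24e-12), a fold of 9.27, and 2.92 with IL-13 (2.61 to 3.23, adjusted p = 2.98e-11), a fold of 7.59. IL-6 went the other way from what it did to Dusp6. Dusp4 fell by 0.68 on the log2 scale with IL-4/IL-6 over IL-4 (-0.95 to -0.40, adjusted p = 0.000453) and by 0.49 with IL-13/IL-6 over IL-13 (-0.77 to -0.21, adjusted p = 0.00939), and the groups did not overlap in either case. Without the second IL-4/IL-6 library the former fold change was -0.55 (adjusted p = 0.000584), and without the first IL-13 library the latter was -0.61 (adjusted p = 0.002). Without the second IL-13 library, the one with the highest Dusp4, the latter was -0.41 (adjusted p = 0.0502). The IL-6 effects with IL-4 and with IL-13 differed by 0.19 (-0.20 to 0.58), and this difference did not pass the test (adjusted p = 0.697).

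Dusp1 encodes a nuclear phosphatase that acts on p38 and JNK as well as on ERK and limits cytokine production by macrophages. It stood at 11.9, 12.3 and 11.5 CPM in the control libraries, 18.1, 18.9 and 18.7 with IL-4, 7.48, 8.72 and 9.96 with IL-4/IL-6, 21.8, 18.9 and 20.9 with IL-13, and 16.6, 13.6 and 12.5 with IL-13/IL-6. IL-4 raised it by 0.64 (0.39 to 0.89, adjusted p = 0.000135) and IL-13 by 0.78 (0.54 to 1.03, adjusted p = 2.01e-05). With IL-6 it came down in both settings, by 1.09 on the log2 scale with IL-4 (log2 fold change -1.09, -1.35 to -0.83, adjusted p = 1.15e-06) and by 0.53 with IL-13 (-0.53, -0.77 to -0.28, adjusted p = 0.00222). With IL-4/IL-6 it ended below the control level (log2 fold change -0.45, adjusted p = 0.00373), and no IL-4/IL-6 library overlapped a control library. With IL-13/IL-6 its level of 14.2 ± 2.17 CPM lay over the control level of 11.9 ± 0.373 without a call (0.25, 0.00 to 0.51, adjusted p = 0.0718), although these groups did not overlap. The absence of a call held in 11 of 13 alternatives, with an adjusted p down to 0.0202 in the others. The IL-6 effects differed by 0.56 (0.21 to 0.92), which was at the limit of the test (adjusted p = 0.0498) and was lost under 12 alternatives. In the annotation an exon of Dusp1 overlaps one of Ergic1 on the opposite strand, a gene with 33394 counts over all libraries. Whether counting used the strand is not given in the sources used here, so reads in the overlap cannot be assigned with certainty.

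Dusp5 (chr19:53529109-53542431, plus strand), a nuclear phosphatase selective for ERK, had the steepest fall of the genes tested when IL-6 was added to IL-4, though not when it was added to IL-13. Its level was 5.83, 4.60 and 5.83 CPM in the control libraries, 7.43, 7.63 and 7.80 with IL-4, 2.21, 1.83 and 2.24 with IL-4/IL-6, 7.71, 6.98 and 7.00 with IL-13, and 5.66, 4.66 and 5.17 with IL-13/IL-6. The IL-4/IL-6 libraries lay below all other 12 libraries. Dusp5 rose with IL-4 (log2 fold change 0.49, 0.21 to 0.77, adjusted p = 0.00358) and with IL-13 (0.41, 0.13 to 0.70, adjusted p = 0.0129, or 0.0675 without the second control library). IL-6 lowered it with IL-4 by 1.86 on the log2 scale (log2 fold change -1.86, -2.18 to -1.54, adjusted p = 2.18e-08), a fitted ratio of 0.276, and with IL-13 by 0.49 (-0.49, -0.77 to -0.20, adjusted p = 0.0119). The call with IL-13 was lost without the filter on low counts (adjusted p = 0.0589) and without the second IL-13/IL-6 library (adjusted p = 0.0584). The difference of the IL-6 effects was 1.37 (0.94 to 1.80, adjusted p = 0.000275), so the fall with IL-4 was larger than the fall with IL-13. An antisense gene overlaps an exon of Dusp5, and the same limit on strand applies.

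Dusp2 encodes a further nuclear phosphatase, best known from activated leukocytes. It was at 4.69, 4.21 and 4.15 CPM in the control libraries, 3.16, 3.93 and 4.42 with IL-4, 1.36, 2.12 and 1.27 with IL-4/IL-6, 3.85, 2.59 and 2.78 with IL-13, and 0.751, 1.14 and 1.5 with IL-13/IL-6. Neither IL-4 alone (log2 fold change -0.18, -0.65 to 0.28, adjusted p = 0.473) nor IL-13 alone (-0.50, -0.97 to -0.03, adjusted p = 0.0645) gave a call, and without the first IL-13 library the latter passed the test (adjusted p = 0.0298). IL-6 lowered Dusp2 with both, by a log2 fold change of -1.28 with IL-4 (-1.80 to -0.75, adjusted p = 0.000515) and of -1.43 with IL-13 (-2.0 to -0.87, adjusted p = 0.000533). All 6 libraries with IL-6 lay below all 9 without it. The effects with IL-4 and IL-13 differed by -0.16, with an interval of -0.94 to 0.62 that leaves room for a difference of either sign (adjusted p = 0.897).

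Promoter windows of Dusp1 and Dusp5 are shown because both genes rose with IL-4 and with IL-13 and fell with IL-6. They are RefSeq sequence of build GRCm38.p6, the 203 bases at chr17:26508520-26508722 on the minus strand for Dusp1 and the 214 bases at chr19:53528895-53529108 on the plus strand for Dusp5, each ending before the nearest annotated exon of the gene. The Dusp1 stretch lies inside the gene as annotated, since 1 long transcript starts further upstream. Capitals mark a match to the cAMP response element.
Dusp1: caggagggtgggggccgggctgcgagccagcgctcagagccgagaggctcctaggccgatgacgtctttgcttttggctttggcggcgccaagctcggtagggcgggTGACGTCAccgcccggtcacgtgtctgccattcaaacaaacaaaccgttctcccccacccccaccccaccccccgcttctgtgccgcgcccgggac
Dusp5: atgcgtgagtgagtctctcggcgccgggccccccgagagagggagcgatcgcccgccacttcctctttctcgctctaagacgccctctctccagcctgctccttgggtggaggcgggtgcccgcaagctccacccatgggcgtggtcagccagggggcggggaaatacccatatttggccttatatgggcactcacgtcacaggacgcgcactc

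Dusp14 (chr11:84048041-84069261, minus strand) encodes a small atypical phosphatase without the kinase-binding domain of the other phosphatases here, reported to act on MAP kinases and on the adaptor TAB1. It was close to the detection limit in most libraries, so raw counts are given. The control libraries had 5, 2 and 1 reads, the IL-4 libraries 3, 2 and 0, the IL-4/IL-6 libraries 53, 47 and 41, the IL-13 libraries 6, 2 and 12, and the IL-13/IL-6 libraries 9, 8 and 4. Every IL-4/IL-6 library thus exceeded every other library more than 3 times over. The ratio of IL-4/IL-6 to IL-4 was 29.9, from 141 against 5 reads, with an exact counting interval of 12.5 to 93.5 that does not include the spread between libraries. Dusp14 passed the filter on low counts only through the IL-4/IL-6 libraries, the group where it was high. Every test below that involves this group is therefore tied to how the gene was selected. The edgeR test called the rise over IL-4 (log2 fold change 4.80, 3.59 to 6.01, adjusted p = 2.7e-06). Without the first IL-4 library this rise was 5.44, and without the third it was 4.23. With IL-13, adding IL-6 gave 21 reads against 20 (ratio 1.09, counting interval 0.563 to 2.12) and no call (adjusted p = 0.909). The difference of the IL-6 effects was -4.67 (-6.53 to -2.81, adjusted p = 0.00232), with -5.32 without the first IL-4 library and -3.98 without the third IL-13 library. Over all alternatives run, the adjusted p was at most 7.13e-05 for the rise and at most 0.0268 for the difference. Dusp14 was lower with IL-13/IL-6 than with IL-4/IL-6 (log2 fold change -2.77, -3.72 to -1.82, adjusted p = 0.000148).

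The RefSeq window of Dusp14 held a match to a STAT motif, TTCNNNGAA, 200 bases before the start. The 29 bases around it are shown because Dusp14 was far higher with IL-4/IL-6 than in any other group. They lie at chr11:84068539-84068567 on the minus strand of GRCm38.p6, in an annotated exon of other Dusp14 transcripts, and capitals mark the match.
Dusp14: tttggacagaTTCTTCGAAcgccagctca
Windows of 300 bases (250 before the start and 50 after it) were at hand for 8 of the 10 genes, and 5 motifs were searched on both strands. TTCNNNGAA occurred in 1 of these 8 windows, that of Dusp14, and in 8.30% of all 32851 windows. The STAT motif with a longer spacer, TTCNNNNGAA, occurred in 0 of 8 and in 6.95% of all windows. The cAMP response element TGACGTCA occurred in 1 of 8, that of Dusp1, and in 1.79% of all. The AP-1 motif TGANTCA and the ETS motif CCGGAAGT occurred in 0 of 8 and in 7.81% and 3.89% of all windows. A match or its absence describes these letters in these windows and nothing more.

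Dusp16 encodes a phosphatase that prefers JNK and p38 to ERK. Its level was 9.63, 9.25 and 9.53 CPM in the control libraries, 9.09, 6.97 and 7.96 with IL-4, 8.84, 7.30 and 9.38 with IL-4/IL-6, 9.69, 12.3 and 8.65 with IL-13, and 14.2, 15.2 and 12 with IL-13/IL-6. It was not called with IL-4 or IL-13 over control, nor with IL-4/IL-6 over IL-4 (log2 fold change 0.09, -0.24 to 0.41, adjusted p = 0.697). With IL-13, IL-6 raised it by 0.44 (0.13 to 0.74, adjusted p = 0.0336), but the ranges of the groups overlapped, and the call was lost with upper-quartile scaling (adjusted p = 0.0521), in a fit of the groups compared alone (adjusted p = 0.0626) and without any of 4 single libraries (adjusted p up to 0.177). Dusp16 was higher with IL-13/IL-6 than with IL-4/IL-6 by 0.70 (0.39 to 1.01, adjusted p = 0.00155) and higher than in the control group by 0.54 (0.24 to 0.85, adjusted p = 0.00356).

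Spry2 (chr14:105891947-105896819, minus strand) was the one Sprouty gene expressed well above the detection limit. It was at 5.31, 4.87 and 6.17 CPM in the control libraries, 6.58, 7.97 and 7.14 with IL-4, 8.10, 7.54 and 7.02 with IL-4/IL-6, 13.7, 13.8 and 16.8 with IL-13, and 14.6, 14.8 and 14.2 with IL-13/IL-6. All 6 libraries with IL-13 lay above all 9 without it. IL-4 raised Spry2 by 0.41 (0.13 to 0.69, adjusted p = 0.0116) and IL-13 by 1.44 (1.17 to 1.70, adjusted p = 3.42e-08). The difference between the cytokines was 1.03 without IL-6 (0.77 to 1.29, adjusted p = 1.38e-05) and 0.95 with it (0.69 to 1.20, adjusted p = 1.4e-05). IL-6 gave no call with IL-4 (0.06, -0.21 to 0.34, adjusted p = 0.736) or with IL-13 (-0.02, -0.27 to 0.22, adjusted p = 0.925), and both intervals leave out a change of the size seen for Dusp1, Dusp2 or Dusp6 with IL-4.

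Spry1 and Spry4 were rare transcripts. Spry1 had 29, 16 and 10 reads in the control libraries, 2, 2 and 0 with IL-4, 4, 3 and 1 with IL-4/IL-6, 8, 3 and 4 with IL-13, and 4, 9 and 3 with IL-13/IL-6, so that the lowest control library exceeded every other library. Spry1 passed the filter on low counts only through the control libraries, so its calls against control are tied to how it was selected. It was called lower with IL-4 (55 against 4 reads, control over IL-4 13.8, counting interval 5.08 to 52.3, adjusted p = 0.000163) and with IL-13 (55 against 15 reads, ratio 3.72, 2.07 to 7.09, adjusted p = 0.00661). Without the first control library the latter was not called (adjusted p = 0.0584). The control libraries are those with the markers of other marrow cells given above, and their part in the Spry1 difference was not tested. Spry4 had 0 reads in all 3 control libraries, 4, 1 and 1 with IL-4, 6, 1 and 0 with IL-4/IL-6, 2, 1 and 3 with IL-13, and 2, 7 and 0 with IL-13/IL-6. It did not pass the filter on low counts and was not tested. A count of 0 allows up to 3 reads, about 0.163 CPM at the mean depth of the control group, and no fold is given. Without the filter it was called higher than control with IL-4/IL-6 (7 reads in all, adjusted p = 0.037) and with IL-13/IL-6 (9 reads, adjusted p = 0.0222), each resting mostly on 1 library.

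Counted over the 9 genes that passed the filter, IL-4 raised 5 (55.6%) over control and lowered 1 (11.1%), against 32.1% of all 13938 genes tested called higher and 35.9% called lower. IL-13 raised the same 5 genes, Dusp1, Dusp4, Dusp5, Dusp6 and Spry2, and lowered the same 1, Spry1, against a background of 29.0% higher and 31.1% lower. The median log2 fold change of the 9 genes was 0.41 with IL-4 and 0.78 with IL-13, against -0.05 and -0.02 over all genes tested. Both comparisons share the control libraries. Over control, IL-4/IL-6 had 4 genes higher and 4 lower (background 35.4% and 37.5%), and IL-13/IL-6 had 4 higher and 2 lower (background 31.9% and 32.1%). These background shares are high, so a count of 4 or 5 in 9 says little about the genes as a group. Spry1 is among the 9 only through its control reads and Dusp14 only through its IL-4/IL-6 reads.

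**Figure D3:**
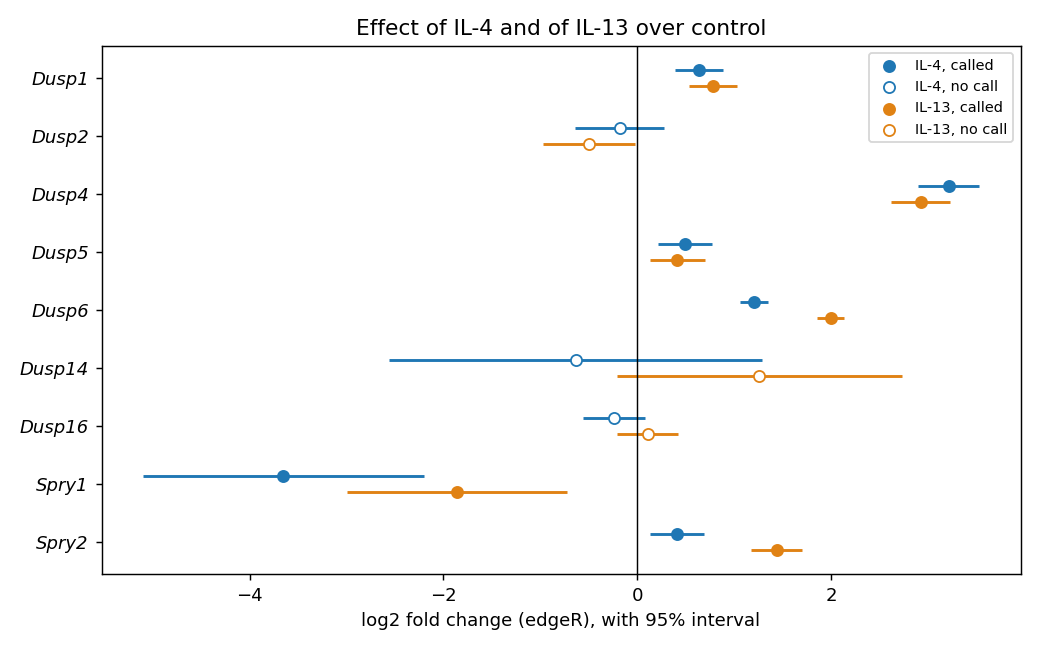
The log2 fold change over control (edgeR, with its 95% interval) is plotted for the 9 genes tested, blue for IL-4 and orange for IL-13, filled where called at an adjusted p under 0.05. Dusp4 lies furthest to the right (3.21 and 2.92), Dusp6 and Spry2 lie further right with IL-13 than with IL-4, and Spry1 lies to the left.

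Against these, IL-6 added to IL-4 raised 2 of the 9 genes, Dusp6 and Dusp14 (22.2%, background 20.7%), and lowered 4, Dusp1, Dusp2, Dusp4 and Dusp5 (44.4%, background 18.7%). Dusp14 is among the 9 only through its IL-4/IL-6 reads, so its part in these counts is tied to the filter. IL-6 added to IL-13 raised 2, Dusp6 and Dusp16 (background 12.1%), and lowered the same 4 (44.4%, background 13.5%). The medians were 0.06 and -0.02 over the 9 genes and 0.04 and 0.01 over all genes. Where the IL-6 effects were compared, the effect was larger in size with IL-4 for Dusp1, Dusp5, Dusp6 and Dusp14, the difference being positive for 2 (background 4.42%) and negative for 2 (background 3.22%). IL-13 over IL-4 had 2 genes higher, Dusp6 and Spry2 (background 7.61%), and 0 lower (background 5.16%). At an unadjusted p under 0.05 edgeR gave 1 lower, Dusp4 (log2 fold change -0.29, interval -0.56 to -0.02, adjusted p = 0.161), and DESeq2 gave 0 at its adjusted p. IL-13/IL-6 over IL-4/IL-6 had 4 higher, Dusp1, Dusp5, Dusp16 and Spry2 (background 15.5%), and 2 lower, Dusp6 and Dusp14 (background 15.8%).

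**Figure D4:**
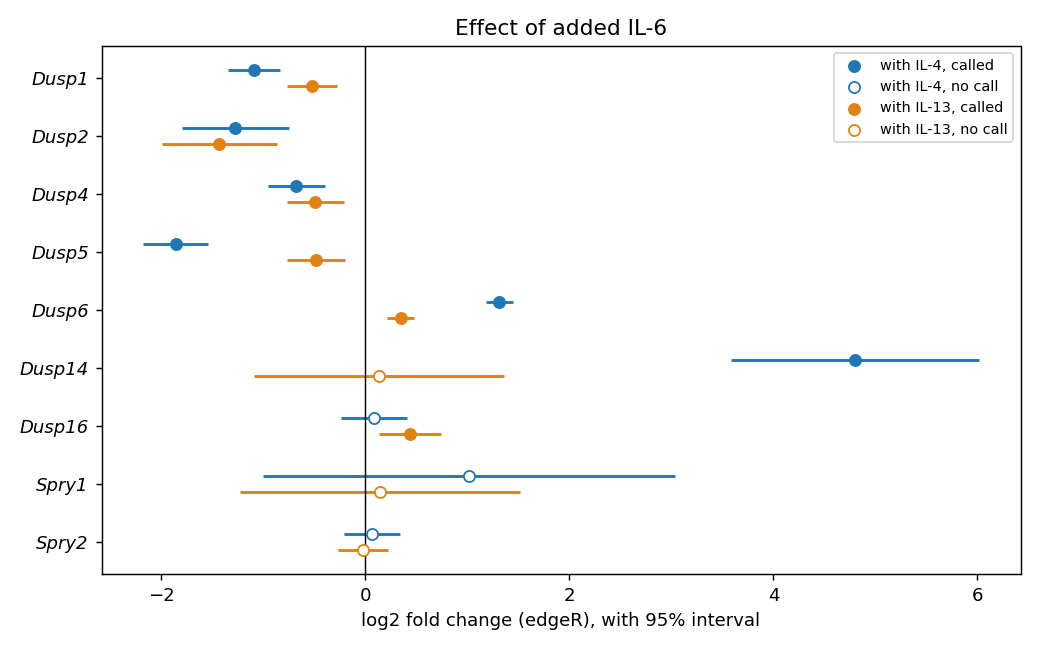
The log2 fold change with IL-6 added (edgeR, with its 95% interval) is plotted for the 9 genes tested, blue on top of IL-4 and orange on top of IL-13, filled where called at an adjusted p under 0.05. Dusp1, Dusp2, Dusp4 and Dusp5 lie left of 0 in both settings, Dusp6 lies right of 0 in both, and Dusp14 lies far to the right where IL-6 was added to IL-4 (4.80) and near 0 where it was added to IL-13 (0.13).

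The neighbours of these genes in the pathway were described from lists. Their counts stand beside the shares of all genes tested, with IL-6 on top of IL-4 20.7% called higher and 18.7% lower, and on top of IL-13 12.1% higher and 13.5% lower, and no list was tested as a whole. Of the 4 other phosphatases of the MAP kinase phosphatase class, 1 rose and 1 fell with IL-6 in either setting, which with 4 genes is near those shares. Dusp7, a cytoplasmic ERK phosphatase like Dusp6, went from 94.8 ± 0.51 CPM with IL-4 to 121 ± 9.4 with IL-4/IL-6 (log2 fold change 0.35, adjusted p = 0.00106). Dusp9, the third of that cytoplasmic kind, fell from 4.07 ± 0.9 to 1.64 ± 0.24 CPM (-1.31, adjusted p = 0.000235). Of 12 other dual-specificity phosphatases tested, 2 rose and 1 fell with IL-6 on top of IL-4, and 3 rose and 1 fell on top of IL-13. With IL-4 both counts were below the background share. This list holds the atypical class together with the slingshot genes Ssh1 and Ssh2. Ssh2, a phosphatase of the actin regulator cofilin, rose by 2.08 with IL-4 and by 0.92 with IL-13. Dusp22 fell by 0.80 and by 0.52 on the log2 scale. Dusp11, an RNA phosphatase, rose by 0.29 with IL-4 (adjusted p = 0.0225) and stood at 0.21 with IL-13 (adjusted p = 0.114).

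Among the Sprouty relatives, Spred1 and Spred3, membrane-bound inhibitors of Ras and Raf, were the 2 of 3 tested that rose with IL-6 in both settings. Spred1 stood at 76.2 ± 3.6 CPM in the control group, 254 ± 7.7 with IL-4, 355 ± 9.4 with IL-4/IL-6, 257 ± 27 with IL-13 and 340.2 ± 16 with IL-13/IL-6. Spred3 went from 5.2 ± 0.86 to 9.96 ± 1.8 CPM with IL-4 (0.94, adjusted p = 0.000655) and from 6.52 ± 1.9 to 15.4 ± 1.3 CPM with IL-13 (1.25, adjusted p = 3.97e-05).

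Of the 18 genes of the ERK cascade from receptor adaptor to ERK, 7 rose and 4 fell with IL-6 on top of IL-4, and 5 rose and 1 fell on top of IL-13. The 4 that fell with IL-4 lie near the background of 18.7%, and that for the 7 that rose is 20.7%. Gab1, a docking adaptor, stood at 22.4 ± 2.6 CPM in the control group, 8.39 ± 0.87 with IL-4, 26.6 ± 1.1 with IL-4/IL-6, 3.61 ± 0.91 with IL-13 and 22.5 ± 2.6 with IL-13/IL-6. Mapk3, which encodes an ERK kinase itself, fell with IL-6 from 223 ± 8.4 to 108 ± 10 CPM with IL-4 and from 225 ± 10 to 148 ± 0.85 CPM with IL-13. Braf, a Raf kinase, rose by 0.89 and by 0.47. Of the 9 Ras GTPase-activating proteins, which switch Ras off, 3 fell with IL-6 on top of IL-4 (background 18.7%) and 4 on top of IL-13 (background 13.5%), among them Rasa4 (-0.63 and -0.68) and Dab2ip (-0.87 and -0.58). Rasal1, from 1.11 ± 0.096 to 0.058 ± 0.058 CPM with IL-4, ended below the level of 3 reads. Of 9 p38 and JNK pathway kinases tested, 4 rose and 3 fell with IL-6 on top of IL-4, and 1 rose and 2 fell on top of IL-13, against background shares of 20.7% and 18.7%, and of 12.1% and 13.5%. The p38 kinase gene Mapk11 rose by 2.53 and by 1.98, Map2k6, whose product activates p38, fell by 1.42 and by 1.00 on the log2 scale, and Mapk12 rose by 1.61 with IL-4 (adjusted p = 0.0141) from 0.399 CPM and had no call with IL-13.

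Finally, of the 10 tested genes commonly read as reporters of ERK activity, 9 were called higher with IL-4 (background 32.1%) and 9 with IL-13 (background 29.0%) over control. The remaining one with IL-4 was called lower, Fos (log2 fold change -0.53), an AP-1 gene named after its values were seen. With IL-6, 2 rose and 4 fell on top of IL-4 (background 20.7% and 18.7%), and 2 rose and 2 fell on top of IL-13 (background 12.1% and 13.5%). Egr1, an immediate early transcription factor gene, had the same direction as Dusp5, from 10.7 ± 1 to 1.90 ± 0.11 CPM with IL-4 (-2.48, adjusted p = 2.55e-09) and from 10.1 ± 1.8 to 5.23 ± 0.34 CPM with IL-13 (-0.95, adjusted p = 9.91e-05). Ier3, also an immediate early gene, went the other way, from 30.2 ± 2.8 to 140.2 ± 26 CPM (2.21) and from 15.8 ± 0.38 to 61.7 ± 5.4 CPM (1.97). Fosl1, an AP-1 family gene at a low level, fell with IL-4 from 2.04 ± 0.69 to 0.555 ± 0.31 CPM (-1.86, adjusted p = 0.00164). Its value with IL-13 was -0.90 without a call (adjusted p = 0.0704). The medians of the 10 genes were -0.23 with IL-4 and -0.15 with IL-13, against 0.04 and 0.01 over all genes tested.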

How the data were processed

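RNA was measured by RNA-seq in 15 BMDM libraries. Raw read counts per gene were deposited for 53465 genes, and per the labels' processing notes the authors' tools were CASAVA, Bowtie2 2.2.3, HISAT2 2.1.0, TopHat2 and DESeq2 on build GRCm38, with no role or order stated. The counting tool, the read filters and the strand setting are not given in the sources used here. The authors also deposited FPKM lists of 26080 genes, used only for levels between genes.

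Symbols were found for 53274 gene IDs. Counts were fitted in edgeR 4.0.16 (R 4.3.3) over all 15 libraries as 5 group means, with filterByExpr at a minimum count of 10, TMM scaling and the quasi-likelihood F-test, and p-values were adjusted by Benjamini-Hochberg over 13938 genes with a threshold of 0.05. The script was tested on simulated data. Standard errors and 95% intervals came from the same fit and are not adjusted for the number of genes. A ratio of rare reads has an exact binomial counting interval of 95%, which covers counting error only. CPM values are the mean ± SD of 3 libraries. Alternatives were DESeq2 1.42.0, upper-quartile and RLE scaling, no filter, a minimum count of 30, a replicate block, other sets of libraries and leaving out each library.

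The 10 genes, the pathway lists and the marker lists were chosen with earlier results of these data known. All 10 genes are named, and from each list up to 3 genes that moved most, in absolute log2 terms, between IL-4 and IL-4/IL-6, among those called in either IL-6 comparison. Sequences are RefSeq promoter windows (GRCm38.p6), and exons are from GENCODE on GRCm38. The genotype of the mice is not reported here.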

Additional observations from a re-analysis of the deposited data

Results flagged for a closer look

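The effect of IL-6 with IL-13 minus that with IL-4 passed edgeR's quasi-likelihood test for 4 of the 9 genes tested, 2 higher and 2 lower, where of all 13938 genes tested 4.42% were called higher and 3.22% lower. Of the 65 genes of the pathway lists that were tested, 7 passed, 6 higher (9.23%) and 1 lower (1.54%), and the other 58 did not. For Dusp6 it was -0.967 on the log2 scale (adjusted p = 2.48e-06), with the effect positive in both settings. For Dusp14, which passed the filter on low counts only through the IL-4/IL-6 libraries, it was -4.67 (adjusted p = 0.00232). The Dusp14 value rested on 141 reads with IL-4/IL-6 against 5 with IL-4, and on 21 against 20 with IL-13. For Dusp5 the difference was 1.37 (adjusted p = 0.000275) and for Dusp1 0.564 (adjusted p = 0.0498), with the effect negative in both settings. Among the 7 pathway genes the difference was -1.16 for Ssh2 (adjusted p = 0.00228), 0.976 for Gab1 (adjusted p = 0.00633), 0.444 for Mapk3 (adjusted p = 0.00515), 1.54 for Egr1 (adjusted p = 0.00029), 0.702 for Dusp23 (adjusted p = 0.00618), 0.628 for Ccnd1 (adjusted p = 0.0283) and 0.435 for Fos (adjusted p = 0.0225). Dusp23, Ccnd1 and Fos fall outside the rule for named genes and were chosen after their values were seen. IL-4 was used at 10 ng/ml and IL-13 at 40 ng/ml, so cytokine and dose cannot be told apart.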

How the results depend on the processing

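Of the 81 results for single genes (9 genes in 9 comparisons), 50 were called, and 42 of these kept their call and direction under every alternative run for them. The other 8 lost the call under at least 1 alternative, and 0 of the 50 changed sign; 5 uncalled results gained a call under some alternative. The losses were those of Dusp4, Dusp5 and Dusp16 with IL-13/IL-6 over IL-13, Dusp6 with IL-13/IL-6 over IL-4/IL-6, Spry1 and Dusp5 with IL-13 over control, Spry1 with IL-13/IL-6 over control, and the difference of IL-6 effects for Dusp1.

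As counts of genes, the 1 lower with IL-4 over control and the 1 lower with IL-13 over control became 0 with a minimum count of 30, where Spry1 was not tested, and leaving out single libraries gave 0 to 2 for the latter. The 2 higher with IL-13/IL-6 over IL-13 became 1 with upper-quartile scaling and in a fit of the groups compared alone, and 1 to 2 without single libraries. The 0 lower with IL-13 over IL-4 became 1 (Dusp4) without the filter and in the fit of the groups compared. The 2 lower with IL-13/IL-6 over IL-4/IL-6 became 1 with upper-quartile scaling, no filter, a minimum count of 30, the replicate block or the groups compared alone, and were 1 without any one library of these groups and otherwise 2. The 2 lower with IL-13/IL-6 over control became 1 with a minimum count of 30 and 1 to 2 without single libraries. The 2 with a positive difference of IL-6 effects became 1 with RLE scaling, the replicate block or the groups compared alone, and 1 to 2 without single libraries. The causes were not tested.

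Values without a call also changed sign in 11 cases. Between IL-4 and IL-4/IL-6, Spry2 was -0.0238 with upper-quartile scaling and -0.0187 to 0.114 without single libraries, and Dusp5 with IL-13/IL-6 over control was 0.00299 without the filter and -0.172 to 0.00415 without single libraries. Without single libraries the others ranged from -1.26 to 0.122 (Dusp14, IL-4 over control), -0.0311 to 0.227 (Dusp16, IL-13 over control), -0.0272 to 0.171 (Dusp16, IL-4/IL-6 over IL-4), -0.274 to 0.81, -0.428 to 0.633 and -0.0833 to 0.0751 (Dusp14, Spry1 and Spry2, IL-13/IL-6 over IL-13), -0.245 to 0.0719 (Dusp4, IL-13/IL-6 over IL-4/IL-6), and -0.402 to 0.107 and -0.149 to 0.0236 (Dusp2 and Spry2, difference of IL-6 effects).

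The correlation of deviations in 30 same-numbered pairs ran from -0.28 to 0.16. This gave no clear pairing by replicate number, but with 3 libraries a group it cannot exclude one. The replicate block ended the calls of Dusp6 and Dusp1 named above (adjusted p = 0.0541 and 0.082) and changed no other call of these genes. Over all genes, 719 called lower with IL-13 over IL-4 became 1153 without the filter, and 2207 called lower with IL-13/IL-6 over IL-4/IL-6 became 1326 in a fit of these groups alone; with IL-13 over IL-4, 1060 higher and 719 lower became 1623 and 1291 without the first IL-13 library and 644 and 444 without the third, and 449 with a negative difference of IL-6 effects became 293 without the second IL-4 library. Upper-quartile scaling moved the median of all genes with IL-4/IL-6 over control to -0.12. Depth limits Dusp14, Spry1 and Spry4, and 3 libraries a group limit the rest.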
